A study of Mus musculus with 4 samples.

Results

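The vacuolar ATPase (V-ATPase) subunits and the cathepsins were followed in RNA from lung tumours of KP mice. A gene was a member where its symbol in the combined count table began with Atp6v or Atp6ap, or with Cts followed by letters or digits, and 1 gene of the latter form was excepted by the rule and is not reported here. The rule used no measured value and gave 47 of 39017 genes, 25 of the V-ATPase and 22 cathepsins. All 4 tumours were controls and no other group was compared. They came from male C57BL/6 KP mice, which carry floxed p53 alleles (p53 Fl/Fl) and a further Cre-activated allele. Each mouse was given 1500 viral units of lenti.PGK-Cre into the trachea, and PGK is a promoter active in most cell types, so that Cre was not restricted to 1 cell type. Tumours were macrodissected 22 weeks and 5 days after initiation and dissociated to single cells, and 1 library was made from each tumour, from 500 ng of total RNA. The genotype label, heterozygous fl/wt, names no gene. Column names in the deposited log2 table read WT, and by the study's methods a control mouse had either no floxed Slc2a1 allele or a single one. Tumours are named 1 to 4 by their replicate number.

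The V-ATPase is a rotary proton pump that acidifies lysosomes, late endosomes and other compartments. Its V1 sector faces the cytosol and hydrolyses ATP, its V0 sector crosses the membrane and carries the protons, and several subunits exist as isoforms encoded by different genes that direct the pump to particular cell types or membranes. Cathepsins are the main proteases of the lysosome, most of them work best at acid pH, and the pump and the proteases are therefore parts of the same degradative compartment. Many lysosomal genes carry the palindrome TCACGTGA near their start, the core of the element that Tfeb and its relatives Tfe3 and Mitf bind.

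Promoter windows of 300 bases, 250 before and 50 after the RefSeq start (GRCm38.p6), were matched for 37 of 47 members. TCACGTGA, which is its own reverse complement so that both strands read alike, was found in the windows of 5 members (13.5%), against 304 of 27025 genes (1.12%). CACGTG, the E-box core that lies inside it and also reads alike on both strands, was found in 9 members (24.3%), against 8.09% of all genes. The 6 stretches of 120 bases below show, in capitals, TCACGTGA in the 5 members that hold it and the pair of CACGTG sites in Atp6v0b. They are written on the strand of the gene, and lie at chr16:44139328-44139447 (Atp6v1a, minus strand), chr8:105566035-105566154 (Atp6v0d1, minus), chr17:26676306-26676425 (Atp6v0e, plus), chr4:117887300-117887419 (Atp6v0b, minus), chr7:142387863-142387982 (Ctsd, minus) and chr2:164833683-164833802 (Ctsa, plus).
Atp6v1a: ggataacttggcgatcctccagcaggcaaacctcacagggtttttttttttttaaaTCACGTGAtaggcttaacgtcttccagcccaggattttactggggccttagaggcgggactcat
Atp6v0d1: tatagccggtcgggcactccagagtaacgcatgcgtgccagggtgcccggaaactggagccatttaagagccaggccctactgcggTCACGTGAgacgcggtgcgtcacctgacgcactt
Atp6v0e: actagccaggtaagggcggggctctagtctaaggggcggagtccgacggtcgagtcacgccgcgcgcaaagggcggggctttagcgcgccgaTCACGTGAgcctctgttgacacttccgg
Atp6v0b: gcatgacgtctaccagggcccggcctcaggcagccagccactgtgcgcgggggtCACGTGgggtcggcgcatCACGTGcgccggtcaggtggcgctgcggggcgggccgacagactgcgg
Ctsd: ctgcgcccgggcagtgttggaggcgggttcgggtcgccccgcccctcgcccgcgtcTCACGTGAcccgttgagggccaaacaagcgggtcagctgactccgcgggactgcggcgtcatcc
Ctsa: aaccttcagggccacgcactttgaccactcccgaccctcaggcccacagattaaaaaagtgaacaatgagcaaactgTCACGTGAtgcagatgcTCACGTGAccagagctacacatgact
Measured to the first base of TCACGTGA, the site lay 132 bases before the RefSeq start of Atp6v1a, 99 before that of Ctsd and 4 before that of Atp6v0d1. In Atp6v0e it began at base 3 of the transcript, and Ctsa had one site 13 bases before the start and another from base 5. Atp6v0b held CACGTG 36 and 18 bases before its start. CACGTG alone was also found in the windows of Ctsl, Ctsf and Ctsll3. The RefSeq starts of Atp6v1a, Atp6v0e, Ctsd and Ctsa lie inside longer gene models of GENCODE M21. These are matches of letters, and the binding of no factor was measured.

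Libraries held 8151613 to 8799007 counts. A count of 3, taken as an approximate upper limit for a gene with a count of 0, was 0.330 to 0.370 counts per 1000000 (CPM). This limit covers counting error only. Values below are CPM, the count scaled to the effective library size of its tumour, and levels of different genes are compared only per kilobase of exon (CPM per kb). Of the 8 alveolar type 2 markers, 8 had a mean CPM of at least 1, with Sftpc, a surfactant protein gene, at 17722, 26616, 24926 and 29617 CPM in tumours 1 to 4, so the labelled lung tissue showed in every library. Because the samples were bulk cell suspensions, fewer cells of a type and less RNA per cell cannot be told apart. No source says that the tumours came from separate mice, so that the p-values measure the spread between these libraries, part of which may be technical.

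Both families were expressed in all 4 tumours. At a mean CPM of at least 1, 33 of 47 members were measured, 22 of 25 V-ATPase genes and 11 of 22 cathepsins. Together the members took 0.822%, 0.751%, 0.941% and 0.743% of all counts in tumours 1 to 4, a mean of 0.814% ± 0.0918 (SD, n = 4). The summed V-ATPase level was 2633, 2800.4, 3243 and 2719 CPM, and the summed cathepsin level was 5325, 4857, 6222 and 4753 CPM. Both sums were highest in tumour 3, with a highest over lowest ratio of 1.23 for the V-ATPase and 1.31 for the cathepsins.

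The counts of most members differed between tumours by more than counting error. A chi-square statistic set the counts of the 4 tumours against those expected from Poisson noise alone, with adjustment over the 14225 genes at a mean of 1 CPM or more. By this test 31 of 33 members were called (21 of 22 V-ATPase genes and 10 of 11 cathepsins) at an adjusted p under 0.05, where 76.7% of all genes tested were called. The 2 members not called, Atp6v1g2 (adjusted p = 0.223) and Ctsf (adjusted p = 0.399), were low. Counting error is small for well counted genes, and with an added coefficient of variation of 10% between tumours 16 of 33 members (48.5%) and 37.1% of all genes were called. In size, the spread of the members was close to that of other genes, with a median SD of log2 CPM of 0.27, against 0.29 over all genes tested. The highest tumour was over 2-fold above the lowest for 7 of 33 members, Atp6v0d2, Atp6v0e2, Atp6v1c2, Atp6v1g3, Ctse, Ctsk and Ctss, where 28.5% of all genes were. Without tumour 1 this held for 3 members (Atp6v0d2, Atp6v0e2 and Ctsk), and without tumour 3 also for 3 (Atp6v0e2, Atp6v1c2 and Ctse). The share of all genes fell too, to 18.0% without tumour 1 and 16.5% without tumour 3.

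**Figure D1:**
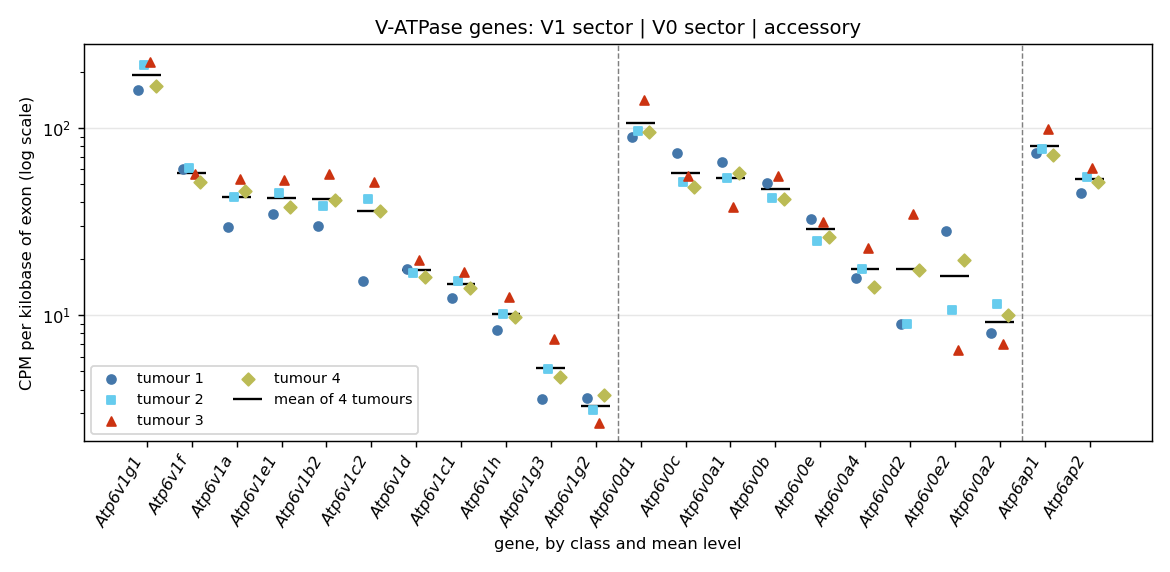
Level of the 22 V-ATPase genes with a mean of 1 CPM or more, as CPM per kilobase of exon on a log scale, with 1 point per tumour and a line at the mean of the 4 tumours, ordered by sector and mean level. Atp6v1g1 is the highest at 192 CPM per kb and Atp6v1g2 the lowest at 3.27, and the points lie furthest apart for Atp6v0e2, Atp6v0d2 and Atp6v1c2.

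In the V1 sector the summed level was 1004, 1327, 1595 and 1242 CPM in tumours 1 to 4, a 1.59-fold range, lowest in tumour 1 and highest in tumour 3. Of its 11 measured genes, 9 were highest in tumour 3, where 30.1% of all genes tested were, and 8 were lowest in tumour 1, where 30.3% of all genes were. Over all members, 19 of 33 were highest in tumour 3 and 14 were lowest in tumour 1. The exceptions in V1 for the highest tumour were Atp6v1f, part of the central rotor, and Atp6v1g2.

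Atp6v1a, the catalytic subunit A, was at 177, 259, 324 and 279 CPM, a 1.82-fold range. Subunit B, which binds nucleotide without hydrolysing it, came from Atp6v1b2, at 159, 203, 301 and 218 CPM. Both genes had their lowest value in tumour 1 and their highest in tumour 3, and both were called. Atp6v1b1, the isoform of acid-secreting cells of the kidney and inner ear, had a count of 0 in all 4 tumours, and Foxi1, the transcription factor that defines such cells, was also at 0. Of the other 4 markers of such cells, Ascl3, Slc4a1 and Rhcg stayed under 1 CPM, and Cftr, a chloride channel also found in other epithelia, was at 2.53, 2.21, 9.01 and 9.16 CPM.

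The isoforms of subunit C, which joins the sectors when the pump assembles, included the gene with the widest range in V1. Atp6v1c2, an isoform known from lung and kidney epithelium (chr12:17284721-17329359), was at 33.0, 91.1, 111 and 77.8 CPM, a mean of 78.3 ± 33.2 (SD, n = 4). Tumour 1 lay below the other 3, the nearest of which was at 77.8 CPM. The ubiquitous isoform Atp6v1c1 was at 69.4, 85.6, 94.8 and 78.3 CPM and varied 1.37-fold. Per kilobase, Atp6v1c2 was the higher of the isoforms in 4 of 4 tumours, with a mean log2 difference of Atp6v1c1 minus Atp6v1c2 of -1.18 ± 0.60 (SD), and made 55.1%, 73.3%, 75.2% and 71.9% of the subunit C level. Exons of Atp6v1c2 share 50 nt with the antisense gene Pdia6, which was counted up to 5588 times, and without the correction for length the mean difference turned to 0.19, with each isoform higher in 2 tumours.

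The peripheral stalks of the pump are made of subunits E and G. Atp6v1e1 was at 142, 184, 216 and 156 CPM, and its testis isoform Atp6v1e2 had a count of 0 in all tumours. Atp6v1g1, the ubiquitous G isoform and the highest V1 gene per kilobase, was at 180.5, 245, 255 and 189.7 CPM and made 95.7% ± 0.453 (SD, n = 4) of the subunit G level. The neuronal isoform Atp6v1g2 was at 9.02, 7.78, 6.66 and 9.40 CPM. The kidney isoform Atp6v1g3 was at 6.71, 9.76, 14.1 and 8.80 CPM, a 2.10-fold range with its highest value in tumour 3, and lost its call without that tumour (adjusted p = 0.111). The remaining V1 genes were the rotor subunits Atp6v1d and Atp6v1f and the regulatory subunit Atp6v1h. They had mean levels of 80.6, 61.2 and 99.6 CPM and ranges of 1.22-fold, 1.18-fold and 1.49-fold. The call of Atp6v1d was lost without tumour 3 (adjusted p = 0.252) and that of Atp6v1f without tumour 4 (adjusted p = 0.602).

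**Figure D2:**
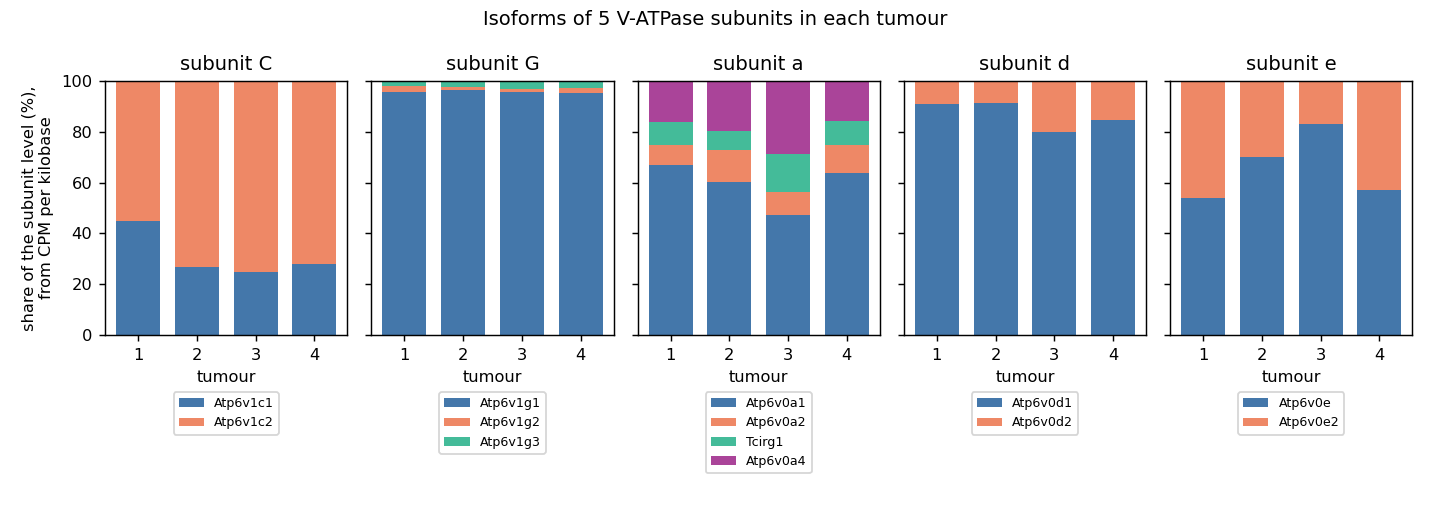
Share of each isoform in the level of its subunit, in percent of the summed CPM per kilobase, for the V-ATPase subunits C, G, a, d and e, with 1 stacked bar per tumour. Atp6v1g1 makes at least 95.2% of subunit G in every tumour, whereas the share of Atp6v0e2 in subunit e goes from 17.0% in tumour 3 to 46.0% in tumour 1.

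The V0 sector had a steadier sum, 1288, 1098, 1189.5 and 1125 CPM, a 1.17-fold range, but its genes differed in which tumour was the highest. All 9 V0 genes were measured and called. By tumour, 4 were highest in tumour 3 and 4 in tumour 1, where 31.4% of all genes tested were highest. Over all members, 8 of 33 were highest in tumour 1.

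Subunit a holds the proton channels across the membrane, and its isoforms direct the pump to different membranes. Atp6v0a1 was at 429, 356, 247 and 377 CPM, lowest in tumour 3. Atp6v0a4, the isoform of acid-secreting epithelia, was at 78.5, 87.6, 113 and 70.1 CPM, and Atp6v0a2, the Golgi and endosome isoform, at 53.9, 77.6, 47.3 and 67.6 CPM. The remaining isoform, Tcirg1 (a3, known from osteoclasts and macrophages), is no member by its symbol, and was at 40.4, 31.0, 55.0 and 40.2 CPM. Per kilobase, Atp6v0a1 made 66.8%, 60.2%, 47.4% and 63.6% of subunit a, Atp6v0a4 16.1%, 19.5%, 28.7% and 15.6%, and Tcirg1 8.95%, 7.47%, 15.0% and 9.66%. In tumour 3 the share of Atp6v0a1 was thus the lowest, and those of Atp6v0a4 and Tcirg1 were the highest, while the level of the whole subunit varied 1.23-fold. Atp6v0a4 shares 259 nt of exon with D630045J12Rik on the same strand, and how reads there were assigned is not given in the sources used here.

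Subunit d couples the rotor to the membrane ring. Atp6v0d1, the ubiquitous isoform and the highest V0 gene per kilobase, was at 161, 174, 253 and 169.8 CPM. Tumour 3 stood apart from the other 3, which lay close together, with a Dixon ratio (the gap to the nearest tumour divided by the distance from lowest to highest, in log2 CPM) of 0.832. A tumour stood apart in this way, past Dixon's 95% limit for 4 values, for 2 of 33 members, where 5.86% of all genes tested passed it. The other was Ctso. Atp6v0d1 no longer passed the limit in the deposited log2 table, and lost its call of variation without tumour 3 (adjusted p = 0.147).

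Atp6v0d2, the isoform known from osteoclasts and macrophages (chr4:19876841-19922605), was at 24.3, 24.4, 94.9 and 47.3 CPM, a mean of 47.7 ± 33.3 (SD, n = 4) and a 3.90-fold range. Tumours 1 and 2 had nearly equal values, and tumour 3 was above tumour 4. Its share in subunit d was 9.07%, 8.49%, 19.9% and 15.5%, and Atp6v0d1 was the higher isoform per kilobase in 4 of 4 tumours, by a mean log2 difference of 2.80 ± 0.69 (SD).

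Subunit e, a small membrane protein, had the widest range of all members. Atp6v0e2 (chr6:48537615-48541801) was at 66.6, 25.4, 15.4 and 46.7 CPM, a 4.32-fold range, highest in tumour 1 and lowest in tumour 3. Atp6v0e was at 122, 91.9, 117 and 96.7 CPM, a 1.33-fold range. The share of Atp6v0e2 in subunit e was 46.0%, 30.1%, 17.0% and 43.0%, lowest in the tumour in which Atp6v0d2 was highest. Atp6v0e2 transcripts share stretches of 112 to 178 nt with transcripts of Bclaf1, Brip1os, Brms1l, Naa25 and Gm37738, so that its counts are uncertain. The ring subunits Atp6v0c and Atp6v0b had mean levels of 194 and 97.3 CPM and ranges of 1.51-fold and 1.33-fold. Atp6v0c has 2 processed pseudogenes with near-identical stretches of 465 nt, which the counting could split or lose.

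Of the accessory proteins, which help the pump assemble, Atp6ap1 (Ac45) was at 223, 233, 298 and 217 CPM and Atp6ap2, the prorenin receptor, at 118, 143, 160.4 and 135 CPM. Both were highest in tumour 3, and without that tumour Atp6ap1 varied 1.07-fold and lost its call (adjusted p = 0.130). Atp6ap1l had 0, 2, 0 and 1 counts.

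**Figure D3:**
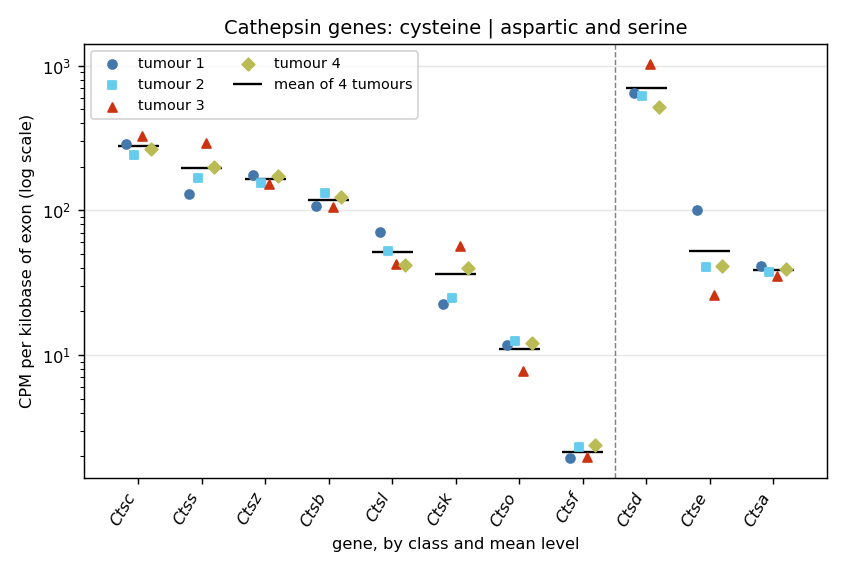
Level of the 11 cathepsin genes with a mean of 1 CPM or more, as CPM per kilobase of exon on a log scale, with 1 point per tumour and a line at the mean of the 4 tumours. Ctsd is the highest at 702 CPM per kb and Ctsf the lowest at 2.15, and the tumours lie furthest apart for Ctse, Ctsk and Ctss.

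Among the cathepsin members, most counts came from Ctsd and Ctsc. Ctsd, an aspartic protease of the lysosome (chr7:142375911-142388038), was at 1516, 1446, 2421 and 1214 CPM, a mean of 1649.5 ± 530.5 (SD, n = 4). At 702 CPM per kb it stood at rank 21 of 14100 genes with a length. Tumour 3 was 1.99-fold above tumour 4, and the other 3 tumours lay closer together. Ctsd shares 808 nt of exon with Gm49369 on the same strand in GENCODE M21, but Gm49369 was not among the genes counted.

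Ctsc, a dipeptidyl peptidase that activates the serine proteases of immune cell granules, was at 1659, 1408, 1884 and 1552 CPM, and at 279.9 CPM per kb was the highest of the cysteine cathepsin members. It varied 1.34-fold. As shares of the summed cathepsin CPM, which is not corrected for length, Ctsc varied with an SD of 1.54 percentage points between tumours and Ctsd with an SD of 5.77. The cathepsin members other than these 2 summed to 2149.8, 2003, 1917 and 1987 CPM, a 1.12-fold range.

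Ctsb, a lysosomal peptidase found in most cells, was at 644, 795, 639.9 and 745 CPM, and Ctsl, an endopeptidase of the same kind, at 458, 339, 275 and 272 CPM. Ctsb had its highest value in tumour 2 and Ctsl in tumour 1, and Ctsb was above Ctsl per kilobase in 4 of 4 tumours (mean log2 difference 1.20 ± 0.42, SD). The exons of Ctsb share 774 nt with the antisense gene Fdft1, and its counts are uncertain to that extent. Those of Ctsl share 395 nt with the pseudogene Gm49230, which was not among the genes counted.

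Ctss and Ctsk had the same order of tumours. Ctss, which processes the invariant chain in antigen-presenting cells (chr3:95526786-95556403), was at 176, 225, 396 and 269 CPM, a mean of 267 ± 94.4 (SD, n = 4). Ctsk, a collagen-degrading protease best known from osteoclasts (chr3:95499256-95509362), was at 34.0, 37.2, 85.8 and 60.7 CPM, a mean of 54.4 ± 24.1 (SD, n = 4). From low to high this was tumour 1, 2, 4 and 3, with ranges of 2.25-fold and 2.52-fold, and the genes are neighbours, 17423 nt apart. The order was not particular to them, as Atp6v1a, Atp6v1b2 and Atp6v0d2, on other chromosomes, had it too. Ctss was above Ctsk per kilobase in 4 of 4 tumours (mean log2 difference 2.49 ± 0.20, SD). Ctsl against Ctsk was the one pair without a single direction, with log2 differences of 1.65, 1.08, -0.42 and 0.06.

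Ctso, a little-studied cysteine cathepsin, was at 60.1, 64.0, 39.5 and 61.8 CPM, with tumour 3 apart below the others (Dixon ratio 0.869), and without tumour 3 it varied 1.07-fold and was not called (adjusted p = 0.634). Ctsz, a carboxypeptidase, had the smallest range of the members called, 1.14-fold around a mean of 236 CPM. Ctsf was at a mean of 10.8 ± 1.16 CPM (SD, n = 4) and was not called.

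Ctse, an aspartic protease known from the stomach and from immune cells (chr1:131638306-131675505), was lowest in the tumour in which Ctsd was highest. It was at 319, 129, 82.8 and 131 CPM, a mean of 166 ± 105 (SD, n = 4) and a 3.85-fold range, highest in tumour 1. Ctsd was above it per kilobase in 4 of 4 tumours, but the log2 difference went from 2.68 in tumour 1 to 5.30 in tumour 3. Ctsa, a serine carboxypeptidase that also protects lysosomal beta-galactosidase, stayed within 1.17-fold around 181 ± 12.0 CPM (SD, n = 4).

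The members with no signal were those of other tissues. A count of 0 in all 4 tumours was found for 11 members, Atp6v1b1, Atp6v1e2 and the 9 cathepsins of the placenta (Cts3, Cts6, Cts7, Cts8, Ctsj, Ctsll3, Ctsm, Ctsq and Ctsr), which lie together at chr13:60798250-61570127. Ctsg, a serine protease of neutrophil granules, had 0 to 4 counts, and of 7 neutrophil markers the granule genes Elane and Mpo were at 0. The other 5 were measured, and the list summed to 32.8, 32.4, 39.5 and 18.1 CPM. Ctsw, a cathepsin of T and natural killer cells, had 5 to 10 counts, and 0 of 8 markers of those cells reached a mean CPM of 1.

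Which isoform of a subunit, or which of 2 cathepsins, had the higher level was asked in 14 pairs. The signs of the 4 differences within tumours were flipped in all ways, as a two-sided exact permutation test. The direction was the same in 4 of 4 tumours for 13 pairs. Among these, Atp6v1b2 and Atp6v1e1 were set against Atp6v1b1 and Atp6v1e2, which had a count of 0 in every tumour, so that their direction was fixed beforehand. With 4 tumours the smallest p of this exact test is 0.125, which those 13 pairs reached, and after Benjamini-Hochberg adjustment over the pairs it was 0.135, so that no pair could pass 0.05.

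**Figure D4:**
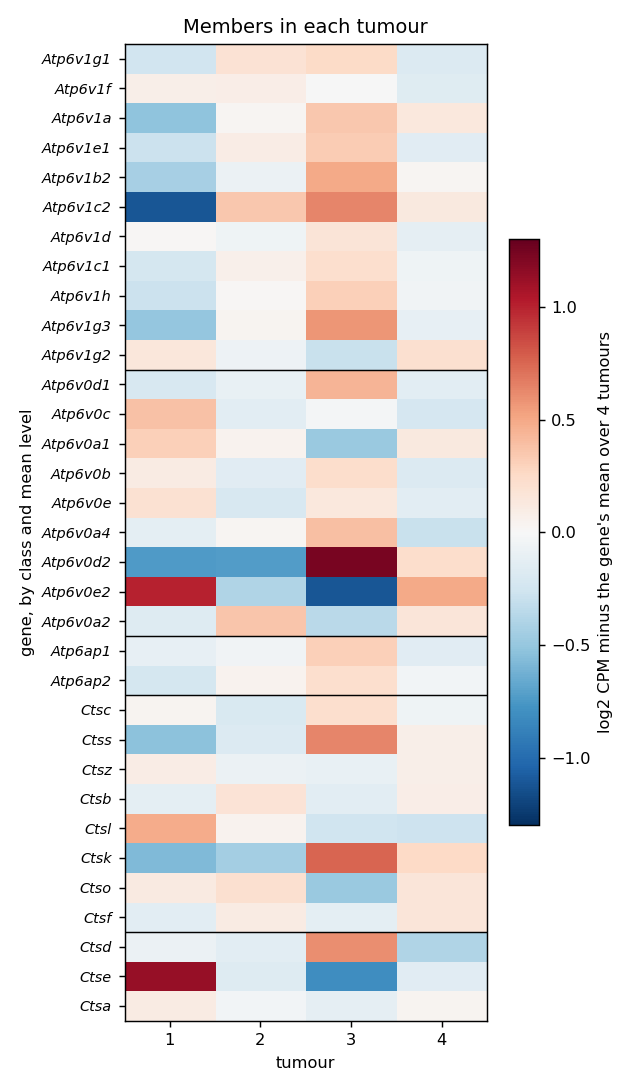
Level of each measured member in each tumour as log2 CPM minus the mean log2 CPM of the gene over the 4 tumours, with genes grouped by class (V1, V0, accessory, cysteine, and aspartic and serine cathepsins) and ordered by mean CPM per kilobase within a class. Red cells fill most of the V1 and accessory block in tumour 3, while Atp6v0e2 (15.4 CPM), Ctse (82.8 CPM), Atp6v0a1 (247 CPM) and Ctso (39.5 CPM) are blue there.

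Of the 5 members that carry TCACGTGA, Atp6v1a, Atp6v0d1 and Ctsd were highest in tumour 3, and Atp6v0e and Ctsa in tumour 1. Atp6v1a and Atp6v0d1 were lowest in tumour 1, Atp6v0e in tumour 2, Ctsa in tumour 3 and Ctsd in tumour 4. Of the transcription factors that bind this element, Tfeb was at 6.05, 5.34, 6.54 and 5.95 CPM and Tfe3 at 59.1, 63.7, 69.1 and 60.2 CPM, and neither was called (adjusted p = 0.813 and 0.0561). Mitf was at 3.30, 11.6, 18.3 and 15.6 CPM and the related Tfec at 2.53, 3.14, 17.5 and 6.54 CPM, and both were called and highest in tumour 3. The other regulators of lysosomal genes listed, Zkscan3 and Bhlhe40, were also called. Zkscan3 was at 159, 139, 296 and 159 CPM, highest in tumour 3, and Bhlhe40 at 203, 206, 148 and 206 CPM, lowest in tumour 3.

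Most markers of leukocytes and macrophages were also highest in tumour 3, where 30.1% of all genes tested were. All 6 pan-leukocyte markers were highest there, with summed levels of 124, 150.3, 292 and 170.3 CPM in tumours 1 to 4. Of 8 macrophage markers 6 were highest there, with sums of 380.4, 450.0, 796 and 511 CPM, and of 8 alveolar macrophage markers 5, with sums of 479, 383, 1086 and 588 CPM. The lists were not uniform. The macrophage markers C1qa and C1qb were lowest in tumour 3, at 25.7 and 36.8 CPM. Of the alveolar macrophage markers, Fabp4, Plet1 and Krt79 were highest in tumour 1, and Fabp4 was lowest in tumour 3. Chil3 alone gave 775 of the 1086 CPM of that list in tumour 3. None of these markers was at 0. In the sums of these 3 lists, as in Ctss, Ctsk and Atp6v0d2, tumour 3 was the highest and tumour 4 the next. Of 6 endothelial markers 3 were highest in tumour 3 and 2 in tumour 1. They summed to 247, 245, 303 and 227 CPM. The 6 fibroblast markers summed to 531, 395, 499 and 301 CPM. Of these, Dcn (37.3, 57.4, 138 and 65.2 CPM) and Pdgfra had the tumour order of Ctss and Ctsk. Col1a1, Col1a2 and Col3a1 were instead highest in tumour 1 and lowest in tumour 4. The part of any of these cells in the levels of Ctss, Ctsk, Atp6v0d2, Ctsd and the V1 genes was not tested. Of the osteoclast markers, Calcr, Ocstamp and Oscar were at or below 0.370 CPM in every tumour, and Acp5 was at 16.8 to 21.1 CPM and not called (adjusted p = 0.227).

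Some epithelial markers differed between tumour 1 and the others, as Atp6v1c2 and Ctse did. Of all genes tested, 30.3% were lowest and 31.4% highest in tumour 1, and 4635 of 14225 were lowest in tumour 3. The 8 alveolar type 2 markers summed to 31527, 54921, 51367 and 58636 CPM, and 6 of them were lowest in tumour 1, as Atp6v1c2 was. Sftpb and Abca3 were instead lowest in tumour 3. The 4 epithelial markers summed to 3972, 2587, 2488 and 2632 CPM, and 3 of them were highest in tumour 1, as Ctse was. Of these, Epcam fell furthest in tumour 3, at 600.3, 470.4, 218 and 371 CPM. Cdh1 was nearly level, at 842, 887, 846 and 876 CPM, and lowest in tumour 1. The 7 gastric markers measured had a mean log2 CPM of 4.16, 4.51, 2.23 and 4.30, and 4 of them were lowest in tumour 3, as Ctse and Atp6v0e2 were. Their list summed to 1077, 1367, 714 and 718 CPM, of which Gkn2 alone gave 851, 1197, 681 and 553 CPM. Gkn3 and Muc5ac were lowest in tumour 1 and Gkn2 in tumour 4. The part of these cell types or states in the levels of the members was not tested.

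**Figure D5:**
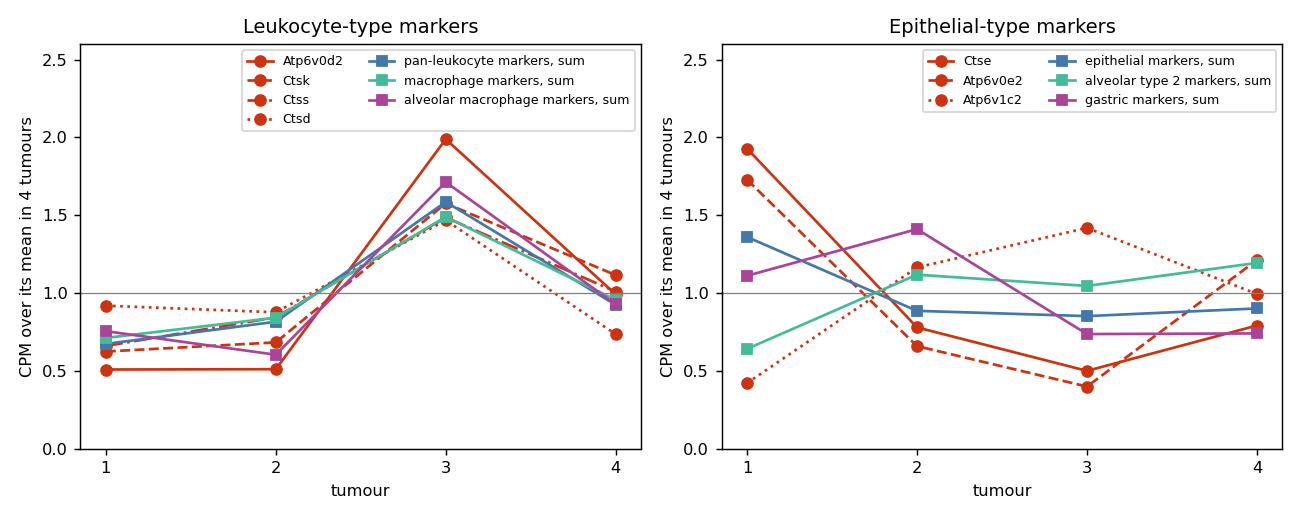
CPM over its mean in the 4 tumours, by tumour, for members with a wide range (circles, red) and for the summed CPM of marker lists (squares), with leukocyte-type lists on the left and epithelial-type lists on the right. On the left the members and all 3 lists are highest in tumour 3, and on the right Ctse and Atp6v0e2 are highest in tumour 1 and lowest in tumour 3, while Atp6v1c2 and the alveolar type 2 sum are lowest in tumour 1.

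Counts of other lysosomal genes called are to be read against the 76.7% of all genes tested. Of 24 genes of the lysosomal membrane and of other hydrolases, 21 were called. Of these 24, 8 were highest in tumour 3 and 8 in tumour 1, near the 30.1% and 31.4% of all genes. Lowest in tumour 1 were 12 of them, where 30.3% of all genes were. Lamp1, a major glycoprotein of the lysosomal membrane, was at 741, 1127, 1341 and 1012 CPM, lowest in tumour 1 and highest in tumour 3, as Atp6v1b2 was. Of 10 measured genes for assembly factors and partners of the V-ATPase (Tcirg1 among them), 7 were called. In this list 6 were highest in tumour 3 and 6 were lowest in tumour 1. Dmxl2, a subunit of the complex that reassembles V1 on V0, was at 6.60, 6.74, 40.2 and 10.8 CPM, a 6.09-fold range. Of 9 genes that sort enzymes to the lysosome 6 were called, 1 was highest in tumour 3 and 3 were lowest in tumour 1. Of 5 measured cathepsin inhibitors 5 were called, 4 were highest in tumour 3 and 2 were lowest in tumour 1. Among these, the cystatins Cst3 and Cstb were at 129 to 183 and 128 to 178 CPM, and both were highest in tumour 3.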

How the data were processed

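RNA from 4 control lung tumours was sequenced as stranded libraries of polyadenylated RNA, read from 1 end. Per the submitters' processing notes, the authors used bcl2fastq 2.17, cutadapt 1.4.2, HISAT2 on mm10 and featureCounts 1.4.4, and deposited raw counts per Ensembl gene. The annotation release and the strand setting of the counting are not given in the sources used here. A table of normalised log2 values, which the authors made by TMM and voom per their methods, served only as an alternative.

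Counts were scaled to effective library sizes (TMM, edgeR 4.0.16 in R 4.3.3) and given as CPM. Log2 values had 0.5 added to the count. Genes with a mean of 1 CPM or more were tested by a chi-square statistic on 3 degrees of freedom, with Benjamini-Hochberg adjustment. Where a p misses the threshold, the tumours may still differ. The statistics were tested on simulated data. Kilobases are of merged exons in GENCODE M21, on GRCm38, the same build as mm10. Overlapping exons were counted from that annotation, and near-identical copies were transcripts of other genes that share at least 80 nt at 97% identity (BLAST 2.17.0). Python 3.11.15 and scipy 1.17.1 were used. Promoter windows are from RefSeq.

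The members and the gene lists were chosen with earlier results of these data known. Given in each tumour are members of the 14 pairs, the highest member per kilobase of each class, and members with a range over 2-fold or a tumour apart. Atp6v1a, Atp6ap2 and the genes outside the members were given in full after their values were seen. Alternatives were DESeq2 1.42.0 size factors, unscaled library sizes, other filters (none, or a mean of 10 CPM), a likelihood ratio test, an added dispersion of 0.01, 2 added to each count, other lengths, and leaving out each tumour.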

Additional observations from a re-analysis of the deposited data

Results flagged for a closer look

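In a group of 4 tumours, a value was taken up here where 1 tumour lay further from its nearest neighbour than Dixon's 95% limit allows. Of 72 values looked at (members, pairs, sums and lists), 5 passed, where chance at 5% gives 3.60. Among the members, Atp6v0d1 was high in tumour 3, at 253 CPM, and Ctso was low in tumour 3, at 39.5 CPM. Among the lists, the mean log2 CPM of the lysosomal sorting genes was high in tumour 2 at 6.30, against 6.22 in each of the others. The alveolar type 2 markers were low in tumour 1, at a mean log2 CPM of 10.35, against 11.33 to 11.46. The gastric markers were low in tumour 3, at a mean log2 CPM of 2.23, against 4.16 to 4.51. This held for 4 of the 7 markers measured, and the summed level of the list was 714 CPM in tumour 3 and 718 CPM in tumour 4. Most of that sum came from Gkn2, at 681 and 553 CPM.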

How the results depend on the processing

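No paired analysis was possible because the design has 1 group and replicate numbers pair no samples. The gene pairs were compared within tumours. Of 145 values of main results under alternatives, 140 kept their direction, with counts and sums close to those reported. Part of this tally was fixed beforehand and says little on how firm the results are. A pair with the same direction in every tumour keeps it when any tumour is left out. Pairs set against a gene with a count of 0 could not turn. A sum was called close within its SD between tumours, which leaving out 1 tumour could hardly pass. The sizes of pair differences moved more. With no length correction the log2 difference of Ctsl minus Ctsk went from 0.59 to 2.70 and that of Ctsd minus Ctsb from 2.54 to 1.18. Without tumour 1 that of Ctsl minus Ctsk was 0.24, and without tumour 3 that of Atp6v0e minus Atp6v0e2 went from 1.03 to 0.62. With an added dispersion of 0.01, 16 of 33 members varied beyond noise, instead of 31. By the deposited log2 values, only 1 member, Ctso, had a tumour apart, instead of 2. With no length correction the log2 difference of Atp6v1c1 minus Atp6v1c2 turned from -1.18 to 0.19. Leaving out each tumour in turn gave 3 to 7 members with a range over 2-fold (3 without tumour 1 or tumour 3), and 26 to 31 members that varied beyond noise (26 without tumour 3). Of 328 values for single members 22 lost their call, 15 of them with the added dispersion, and 0 were gained. With no filter Atp6v1f alone lost it. Under other scalings, the deposited log2 table and a minimum of 10 CPM, alternatives chosen after seeing the data, 18 or 19 members were highest in tumour 3. Members under 1 CPM were too shallow to compare, and a gene at 0 may lie anywhere below about 0.330 to 0.370 CPM, the approximate limit taken here.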
